A study of Mus musculus with 4 samples.

Results

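The 10 genes described here encode the transcription factors that build the beta cell, the insulin-secreting cell of the pancreatic islet, and hold it in its mature state: Pdx1, Mafa, Nkx6-1, Nkx2-2, Neurod1, Isl1, Pax6, Foxa2, Rfx6 and Mnx1. They were chosen by name for their function, with earlier results of these data known. Each was read through the brightest probeset that the platform annotation gives to that gene alone. All 10 were measured, among 22180 genes in all. A probeset is the set of array probes that reads a transcript.

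The islets came from C57BL/6 mice of 5 to 6 months, either GPR41 transgenic (Tg) animals or wild-type (WT) littermates, with 2 Affymetrix Mouse Gene 2.0 ST arrays per group. GPR41 is a receptor for short-chain fatty acids encoded in the mouse by Ffar3. The promoter of the transgene, the cells in which it acts and whether an array holds islets of 1 mouse or of a pool are not given in the sources used here. All islets had been kept in RPMI medium before RNA was purified.

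These factors form a network in which each member acts on the genes of others as well as on insulin and the machinery that senses glucose and releases the hormone. Pdx1, Nkx6-1, Nkx2-2, Isl1, Pax6 and Mnx1 carry a homeodomain, a DNA-binding fold whose usual core site reads TAAT. Neurod1 is a basic helix-loop-helix protein that binds E-boxes together with a ubiquitous partner, Mafa is a basic leucine zipper protein, Foxa2 is a forkhead protein, and Rfx6 is a winged-helix protein. Pax6, Isl1, Nkx2-2, Neurod1, Rfx6 and Foxa2 are also used by other islet endocrine cells. Mafa, Nkx6-1 and, in the adult islet, most of the Pdx1 belong to beta cells.

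The promoters of Foxa2, Rfx6 and Pdx1 are shown because Foxa2 and Rfx6 had the largest differences of the group and Pdx1 is its best-known member. Each runs from 250 bases before to 50 bases after the start, with the homeodomain core TAAT or its complement ATTA in capitals. Sequences are those of RefSeq on GRCm38.p6, at chr2:148046920-148047219 on the minus strand for Foxa2 (the farthest upstream of 3 listed), chr10:51685268-51685567 on the plus strand for Rfx6 and chr5:147269847-147270146 on the plus strand for Pdx1.
Foxa2: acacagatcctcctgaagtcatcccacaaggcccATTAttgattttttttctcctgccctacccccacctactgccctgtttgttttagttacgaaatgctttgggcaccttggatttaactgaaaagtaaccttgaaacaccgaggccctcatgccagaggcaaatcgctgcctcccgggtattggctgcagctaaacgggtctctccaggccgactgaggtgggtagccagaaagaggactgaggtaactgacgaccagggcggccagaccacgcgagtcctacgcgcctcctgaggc
Rfx6: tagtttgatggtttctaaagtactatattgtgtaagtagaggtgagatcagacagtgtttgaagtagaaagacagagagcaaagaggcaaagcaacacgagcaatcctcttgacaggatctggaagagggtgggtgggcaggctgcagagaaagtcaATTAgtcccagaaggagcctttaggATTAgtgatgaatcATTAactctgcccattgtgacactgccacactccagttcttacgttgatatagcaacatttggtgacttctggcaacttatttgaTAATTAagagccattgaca
Pdx1: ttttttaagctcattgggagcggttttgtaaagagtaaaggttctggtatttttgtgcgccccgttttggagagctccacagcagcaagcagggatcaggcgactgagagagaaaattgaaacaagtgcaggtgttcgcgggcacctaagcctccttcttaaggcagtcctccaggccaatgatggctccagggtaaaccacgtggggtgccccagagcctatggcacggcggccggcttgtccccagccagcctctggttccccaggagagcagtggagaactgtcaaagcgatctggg
On both strands, the Rfx6 window held 5 cores, some overlapping, the Foxa2 window 1 and the Pdx1 window 0. Among the 9 members with a listed promoter, 6 held at least 1 such core, against 58.4% of 27025 promoters of the same length. An E-box, CANNTG, was found in 6 of the 9 windows, against 72.1% of all promoters. The Pdx1 window held 3 E-boxes, as did those of Nkx2-2 and Mnx1. The forkhead core TGTTTAC, searched on both strands, was in none of the 9 and in 3.52% of all promoters. A match is only a run of letters, and these windows hold no measurement of binding.

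Levels are log2 intensities that the submitters had normalised across arrays. The transgene checked the labels, since Ffar3 stood at 11.02 and 10.98 on the Tg arrays and at 7.09 and 6.47 on the WT arrays. Array medians over all probesets lay between 6.43 and 6.47. In limma's moderated fit over all 22180 genes, 199 differed between Tg and WT at an adjusted p under 0.05, which is 0.897% of them. None of the 10 factors was among these. An exact permutation test of 2 arrays against 2 could not go below a two-sided p of 0.333, so each p below rests on limma's model.

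Rfx6 and Foxa2 are described first. Rfx6, which in the mouse is needed for islet endocrine cells to form and in the adult beta cell for calcium channel genes and insulin secretion, read 11.09 and 10.94 on the Tg arrays, against 11.37 and 11.20 on the WT arrays. Both Tg arrays lay below both WT arrays. The difference, Tg minus WT on the log2 scale, was -0.27 (SE 0.12, 95% confidence interval -0.57 to 0.03, adjusted p = 0.465).

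Foxa2, a forkhead factor that opens chromatin and acts upstream of Pdx1, read 8.58 and 8.70 in Tg islets, against 9.12 and 9.13 in WT islets. The groups did not overlap, and the difference was 4.02 times the wider of the gaps between arrays of 1 group. It was -0.48 (SE 0.11, interval -0.75 to -0.22), a Tg level of 0.715 times that of WT. Unadjusted p was 0.0043 and adjusted p 0.154, so Foxa2 did not pass over all genes. It was the only one of the 10 with an unadjusted p under 0.05, a threshold that 11.8% of all genes met. With each array left out in turn its difference stayed between -0.54 and -0.42, and its adjusted p over 15 alternative settings ranged from 0.087 to 0.575.

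Pdx1, the homeodomain factor without which no pancreas forms and an activator of the insulin and Slc2a2 genes in the adult, read 9.26 and 9.34 on the Tg arrays, against 9.55 and 9.26 on the WT arrays. Its groups overlapped, because WT replicate 2 stood with the Tg arrays. The difference was -0.11 (SE 0.13, adjusted p = 0.843). Its interval spanned Tg levels of 0.739 to 1.17 times that of WT. Mafa, which binds the insulin promoter and marks mature beta cells, read 9.22 and 9.42 in Tg islets, against 9.49 and 9.43 in WT islets. The groups did not overlap, but Tg replicate 2 and WT replicate 2 lay only 0.0093 log2 units apart. Mafa differed by -0.14 (SE 0.12, adjusted p = 0.729), with an interval of 0.740 to 1.11 times WT.

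Nkx6-1, which keeps beta cells from the alpha cell fate, read 9.84 and 9.95 on the Tg arrays, against 10.17 and 9.85 on the WT arrays. Only WT replicate 1 lay above both Tg arrays, and the difference was -0.12 (SE 0.14, adjusted p = 0.831). Nkx2-2, a factor that represses non-beta programmes and is needed for beta cells to form, read 10.41 and 10.36 in Tg islets, against 10.77 and 10.44 in WT islets. Its groups did not overlap, but the gap between the WT arrays exceeded the difference of -0.22 (SE 0.14, adjusted p = 0.628). Mnx1, a homeodomain factor needed in the mouse for beta cell formation, read 8.07 and 8.22 in Tg islets, against 8.16 and 7.84 in WT islets. It differed by 0.14 (SE 0.14, adjusted p = 0.782), with overlapping groups.

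Isl1, a LIM-homeodomain factor of all islet endocrine cells that acts on Mafa, read 10.66 and 10.57 on the Tg arrays, against 10.96 and 10.78 on the WT arrays. Both Tg arrays lay below both WT arrays. The difference was -0.25 (SE 0.12, interval -0.54 to 0.03, adjusted p = 0.470). Pax6, which acts on hormone and prohormone-processing genes, read 10.94 and 10.86 in Tg islets, against 11.15 and 10.83 in WT islets. The Tg values lay between the WT values, and the difference was -0.09 (SE 0.14, adjusted p = 0.880).

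Neurod1, an activator of the insulin gene, read 6.83 and 7.20 on the Tg arrays, against 7.20 and 6.80 on the WT arrays. Within each group the arrays lay 0.37 (Tg) and 0.41 (WT) apart, far more than the difference of 0.01 (SE 0.19, adjusted p = 0.992). The strand that this probeset reads is uncertain. Of the 40 single-gene probesets nearest in number, 33 read genes of the plus strand, whereas Neurod1 lies on the minus strand. For the other 8 members with a listed strand, 26 to 40 of the 40 neighbours lay on the gene's own strand. A further probeset, which the annotation gives to both Neurod1 and Cerkl and which therefore names neither, had 39 of 40 neighbours on the minus strand. It read 10.99 and 10.95 in Tg islets, against 11.20 and 11.05 in WT islets (difference -0.15, SE 0.11, adjusted p = 0.673). Its Tg values lay below its WT values. Which of these probesets reads Neurod1 messenger RNA was not tested.

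**Figure D1:**
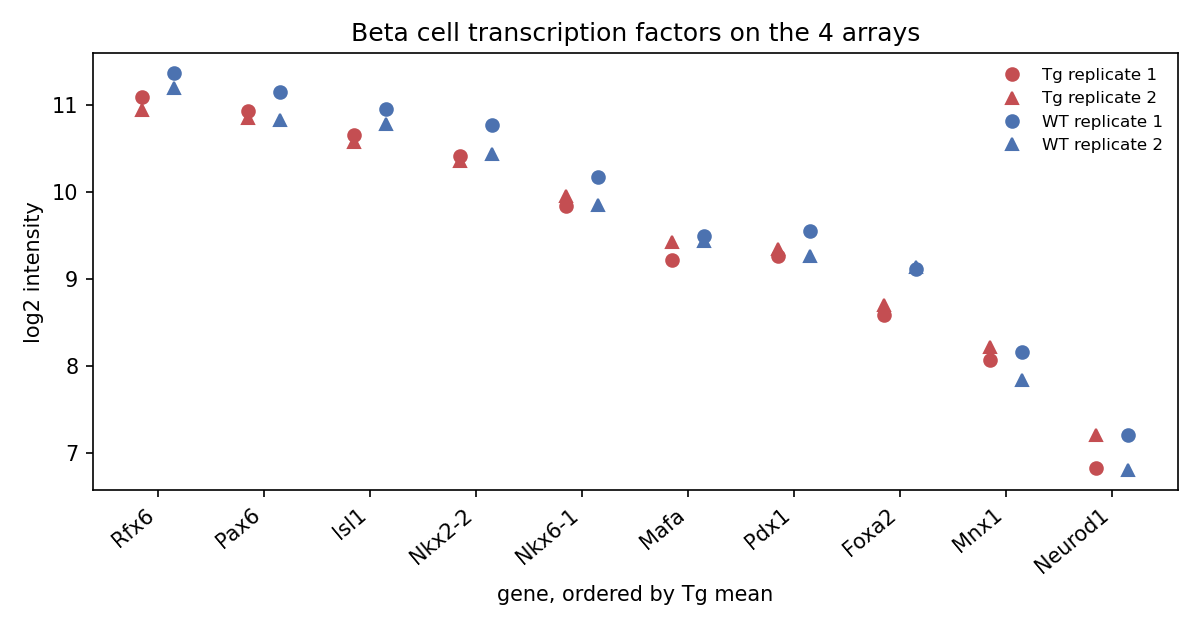
Log2 intensity (vertical axis) of the 10 factors on each array, with genes ordered by their Tg mean along the horizontal axis. Red symbols are Tg arrays and blue symbols WT arrays, circles for replicate 1 and triangles for replicate 2. Both Tg symbols lie below both WT symbols for Foxa2, Rfx6, Isl1, Nkx2-2 and, narrowly, Mafa, as for 23.7% of all genes. Those of Pax6, Nkx6-1, Pdx1, Mnx1 and Neurod1 overlap.

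In each array the genes were also ranked by brightness, as the percentage of the 22180 genes at or below a probeset's level. Rfx6 stood at 97.2 and 96.6% in Tg islets, against 98.0 and 97.5% in WT islets, and Pdx1 at 83.4 and 84.4% in Tg islets, against 86.1 and 83.3% in WT islets. The rank of Foxa2 was 74.97 and 76.7% on the Tg arrays, against 81.0 and 81.8% on the WT arrays. The single-gene probeset of Neurod1 was the dimmest, at 53.3 and 57.9% in Tg islets, against 57.6 and 53.2% in WT islets. The order from Rfx6 through Pax6, Isl1, Nkx2-2 and Nkx6-1 to Mafa, Pdx1, Foxa2, Mnx1 and Neurod1 held on every array, except that Mafa and Pdx1 changed places on replicate 1 of both groups. Neighbours whose ranges overlapped were Mafa and Pdx1 in both groups, and Pax6 and Isl1 in WT. Brightness also depends on the probes of a probeset, so this order is not one of transcript amounts.

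Taken as a set, the factors had a median difference of -0.13, with 8 lower and 2 higher in Tg. With Neurod1 read from the probeset shared with Cerkl, a choice made after seeing the data, 9 were lower and the median was -0.15. Over all genes the median was -0.02 and 54.3% were lower in Tg. For 5 members (Rfx6, Isl1, Nkx2-2, Mafa and Foxa2) both Tg arrays lay below both WT arrays, and for none did they lie above. Of all genes, 23.7% were separated in that direction and 42.3% in either. In bulk islets, the share of beta cells or other endocrine cells and the RNA per cell cannot be told apart. No factor was called, and whether either differed was not tested.

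**Figure D2:**
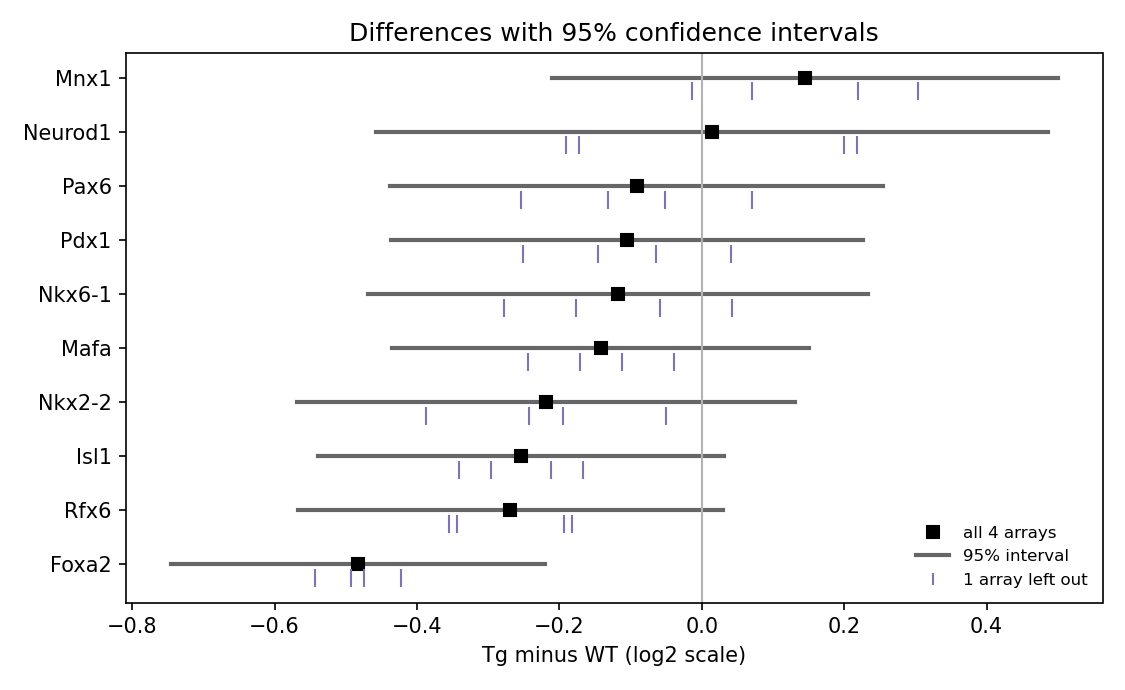
Tg minus WT on the log2 scale (horizontal axis) for each factor. Squares are the values from all 4 arrays, grey bars their 95% confidence intervals from limma, and purple ticks the values with 1 array left out. The interval of Foxa2, -0.75 to -0.22, lies wholly below 0, while the other 9 include 0.

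WT replicate 1 weighed heavily on this pattern. It was the highest of the 4 arrays for 8 of the 10 members, against 32.2% of all genes. WT replicate 2 lay below WT replicate 1 for 9 of 10 members, with a median gap of -0.30, against a median of -0.03 and 55.5% of genes overall. Between the Tg arrays, Tg replicate 2 lay below Tg replicate 1 for 4 of 10. Without WT replicate 1 the median difference of the set was -0.0051 and 5 of 10 members were lower in Tg. Without WT replicate 2 the median was -0.27 and all 10 were lower. Pdx1, Nkx6-1 and Pax6 were above 0 without WT replicate 1, at 0.04, 0.04 and 0.07. Nkx2-2 was at -0.05 without WT replicate 1 and at -0.39 without WT replicate 2, and Isl1 at -0.17 and -0.34. Mafa moved more with the Tg arrays, to -0.04 without Tg replicate 1 and -0.24 without Tg replicate 2.

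Markers of other pancreatic cells moved with these arrays. The mean of 13 acinar markers, genes of the enzyme-secreting exocrine cells, was 11.4 and 11.0 on the Tg arrays, against 10.6 and 11.7 on WT replicates 1 and 2. That of 6 duct markers was 8.26 and 8.11 in Tg islets, against 7.61 and 8.74 in WT islets. The WT array with the higher mean of the factors was the one with the lower acinar and duct means. Not every marker followed its list. On WT replicates 1 and 2, Bhlha15 of the acinar list read 8.31 and 8.12. Of the duct list, Prom1 read 10.31 and 10.26, and Krt7, named after its values were seen, 8.63 and 8.30. The mean of 15 pan-endocrine genes, which serve the secretory granules of all islet endocrine cells, was 11.80 and 11.80 in Tg islets, against 11.88 and 11.69 in WT islets. When every array was centred on that mean, the median difference of the factors was -0.15 and Foxa2 was at -0.50 (adjusted p = 0.254). All 9 immune markers were higher in Tg, with list means of 8.41 and 8.02 on the Tg arrays, against 7.46 and 7.21 on the WT arrays, as were all 7 endothelial markers (8.97 and 8.65, against 8.47 and 8.32 in WT) and all 6 mesenchymal markers (7.42 and 7.30, against 6.84 and 6.98 in WT). Of these 22 markers, limma called 0 over all genes and 13 had an unadjusted p under 0.05, against 11.8% of all genes. Of all 22180 genes, 10147 were higher in Tg. Without WT replicate 1, 3 of the 6 mesenchymal markers were lower in Tg, and without Tg replicate 1, 1 of the 7 endothelial markers. Among genes above the median level, and with the variance trend with or without a robust prior, limma called 2 immune markers and 1 mesenchymal marker. Above the median level 235 of 11090 genes were called in all, with the trend 274 and with its robust prior 347. Centring on the pan-endocrine list called 1 of each, among 239 genes called in all. With quantile normalization once more, 1 immune marker was called, among 194 genes in all. Cd68 (0.75), Tyrobp (1.10), Cdh5 (0.62), Plvap (0.64), Dcn (1.79) and Pdgfrb (0.38) had the smallest p in their lists. The 3 Schwann markers averaged 5.22 and 5.02 in Tg islets, against 5.22 and 5.17 in WT islets. In the duct list Cftr, a chloride channel, rose (2.30, SE 0.23, adjusted p = 0.021) and Prom1 fell (-1.004, SE 0.12, adjusted p = 0.036). Both calls were lost with the replicate block (adjusted p = 0.117 for Cftr and 0.161 for Prom1) and without moderation. That of Prom1 was lost without each of the 4 arrays in turn (0.098 to 0.203), and that of Cftr without Tg replicate 1 (0.137) or Tg replicate 2 (0.110). The part of other cells in the factor values was not tested.

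**Figure D3:**
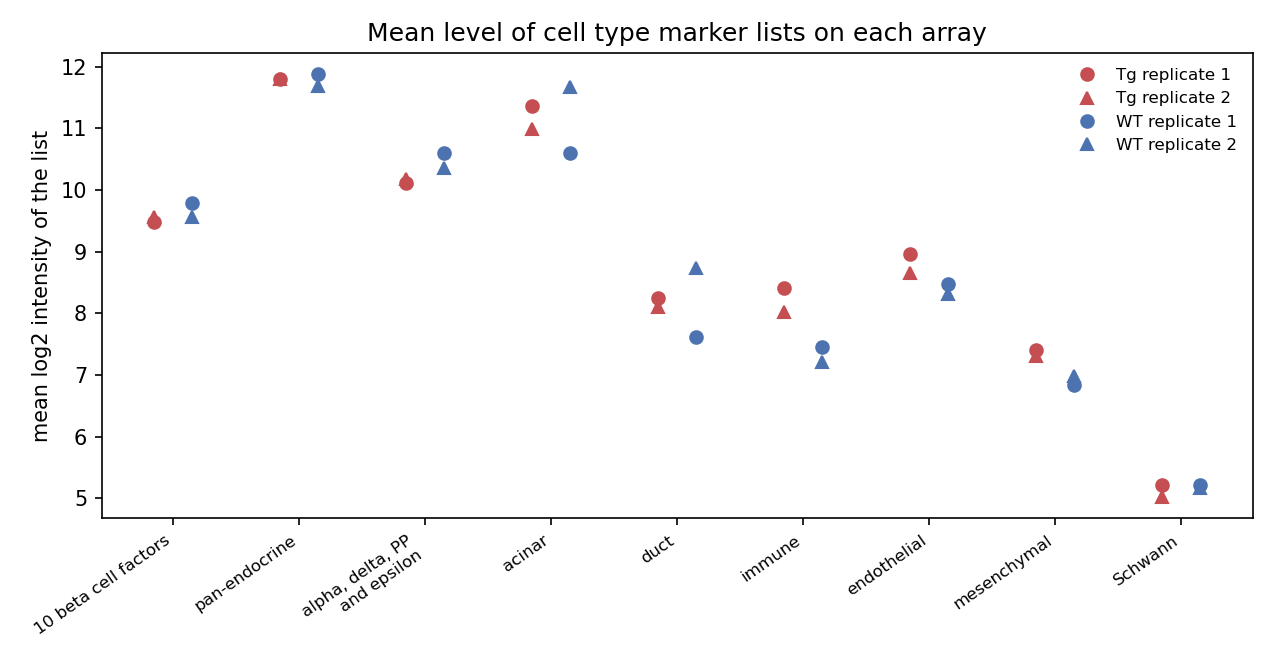
Mean log2 intensity (vertical axis) of the 10 factors and of 8 lists of cell type markers (horizontal axis) on each array, red for Tg and blue for WT, circles for replicate 1 and triangles for replicate 2. The WT arrays stand apart in the acinar list, at 10.6 and 11.7, and in the duct list, at 7.61 and 8.74, and immune means are 8.41 and 8.02 in Tg, against 7.46 and 7.21 in WT.

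Genes on which these factors act were read from a list of known targets. Of 15 measured, 1 fell, 0 rose and 14 did not pass, with a median difference of -0.0069. An unadjusted p under 0.05 was found for 3 of the 15, against 11.8% of all genes. Both Tg arrays lay below both WT arrays for 4 of the 15, against 23.7% of all genes. Cacna1c, the L-type calcium channel subunit that depends on Rfx6 in mouse beta cells, read 9.19 and 9.13 on the Tg arrays, against 10.09 and 9.96 on the WT arrays. The groups lay far apart, and the Tg level was 0.548 times that of WT (difference -0.87, SE 0.11, adjusted p = 0.037). This call was lost without each of the 4 arrays in turn, at adjusted p between 0.090 and 0.209, and with the replicate block, at 0.149, while the difference stayed between -0.93 and -0.80. It was also lost without moderation, at 0.472. Rfx6 itself gave no call (limma adjusted p = 0.465), and a link between Rfx6 and Cacna1c in these data was not tested. Cacna1d, the other main L-type subunit, differed by -0.25 (adjusted p = 0.552) and was named after its value was seen.

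Other targets gave no call. Ucn3, a peptide of mature beta cells, read 10.89 and 11.03 in Tg islets, against 11.70 and 11.41 in WT islets (difference -0.60, adjusted p = 0.170). Its groups did not overlap. Slc30a8, the zinc transporter of insulin granules, read 11.57 and 11.63 in Tg islets, against 12.07 and 11.79 in WT islets (difference -0.33, adjusted p = 0.407), also with separate groups, and was named after its values were seen. Ins2 read 12.52 and 12.59 in Tg islets, against 12.57 and 12.46 in WT islets, a difference of 0.04 with an interval of -0.23 to 0.30. Ins1 was not analysed here. Slc2a2, the glucose transporter (-0.05), the hormone gene Iapp (0.06), the incretin receptor gene Glp1r (0.10) and the potassium channel genes Abcc8 (-0.07) and Kcnj11 (-0.0069), all chosen after their values were seen, lay near 0. Intensities near the top of the array's range, as for Ins2, may compress differences. Without WT replicate 1 the median of the targets was 0.07 and 5 of 15 were lower. Without WT replicate 2 it was -0.11 and 14 of 15 were lower.

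Other factors of the beta cell network gave no call either. Of 18 measured, limma called 0 (3 at an unadjusted p under 0.05), 12 were lower in Tg and the median was -0.10. Over all genes, 11.8% had an unadjusted p under 0.05 and 54.3% were lower in Tg. Insm1, a zinc finger factor of endocrine differentiation, read 8.49 and 8.53 in Tg islets, against 8.997 and 8.81 in WT islets (difference -0.39, adjusted p = 0.271). Prox1, a homeobox factor of the developing pancreas, differed by -0.54 (adjusted p = 0.310), and for both genes the groups did not overlap. The network median was -0.06 without WT replicate 1 and -0.16 without WT replicate 2. Without Tg replicate 2 it was -0.06, with 9 of 18 lower. In the list of progenitor genes, 0 of 9 passed (1 at an unadjusted p under 0.05) and 8 were lower, with a median of -0.19. Neurog3, the switch of endocrine progenitors that works upstream of Neurod1, read 5.76 and 5.74 on the Tg arrays, against 6.60 and 6.30 on the WT arrays. The groups did not overlap, and the difference was -0.70 (adjusted p = 0.109). Onecut1 differed by -0.18. The progenitor median was 0.03 without WT replicate 2, -0.10 without Tg replicate 2 and -0.55 without WT replicate 1, where 1 member was called. The list shares Sox9 with the duct and Ptf1a with the acinar markers.

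Factors of the other islet cells had wider differences. All 5 measured were lower in Tg, with a median of -0.67, 0 past the test and 3 at an unadjusted p under 0.05. The shares over all genes were 54.3% lower in Tg and 11.8% at an unadjusted p under 0.05. A count of 1 called was reached under each of 4 alternatives, namely keeping genes above the median level, centring on the pan-endocrine list and the variance trend, whether or not its prior was robust. Etv1 read 8.98 and 9.04 in Tg islets, against 10.13 and 9.77 in WT islets (difference -0.94, adjusted p = 0.066). Irx2, an alpha cell factor, read 7.36 and 7.85 in Tg islets, against 8.63 and 8.30 in WT islets (difference -0.86, adjusted p = 0.177), and Irx1 differed by -0.67. The list's median was -0.53 without WT replicate 1, where 4 of 5 were lower, and -0.95 without Tg replicate 2. The hormone genes themselves differed by -0.15 (Gcg), -0.32 (Sst) and 0.06 (Ppy), and the list of 9 measured genes that mark alpha, delta, PP or epsilon cells had a median of -0.32, with 0 past the test and 3 at an unadjusted p under 0.05. That list shares Irx1, Irx2 and Hhex with the factors just described, and its median was -0.21 without WT replicate 1 and -0.18 without Tg replicate 2.

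**Figure D4:**
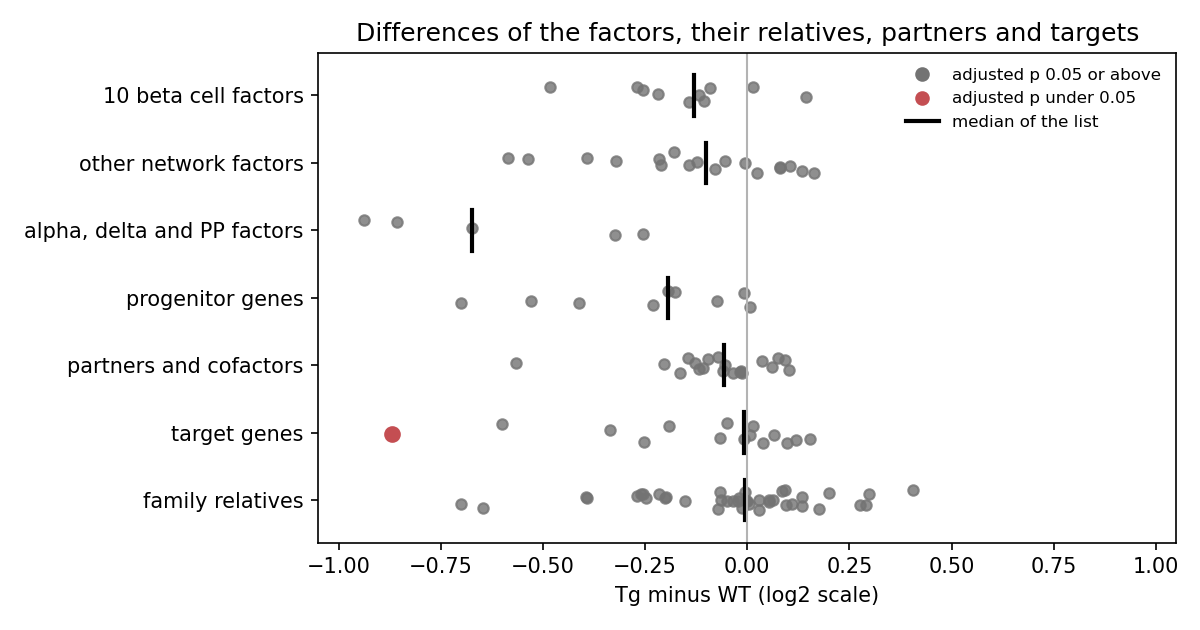
Tg minus WT on the log2 scale (horizontal axis) for the genes of 7 lists, 1 point per gene, with black bars at the median of each list. The red point is Cacna1c at -0.87, the only gene of these lists with an adjusted p under 0.05, and grey points did not pass.

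Partner proteins of the factors had no call. Of 20 measured, limma called 0 (1 at an unadjusted p under 0.05), 15 were lower in Tg and the median was -0.06. Among all genes, 11.8% had an unadjusted p under 0.05 and 54.3% were lower in Tg. The LIM-only gene Lmo4, whose protein binds the LIM partner Ldb1 that Isl1 also uses, read 7.95 and 7.87 in Tg islets, against 8.30 and 8.64 in WT islets (difference -0.56, adjusted p = 0.209), with groups that did not overlap. Ep300, a histone acetyltransferase recruited by several of the factors, differed by -0.20 (adjusted p = 0.555). Without WT replicate 1 the partners' median was 0.01 and 9 of 20 were lower, and without Tg replicate 2 it was -0.04.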

How the data were processed

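Total RNA of pancreatic islets was measured on 4 arrays (250 ng labelled). The authors deposited log2 intensities, as the range of values shows. Partek and RMA are named in the submitters' processing notes, with no version. No source used here gives a genome build for the array values. Of 27037 probesets, 23521 carried 1 gene symbol, and the brightest of these stood for each of 22180 genes, with no filter on dim genes. Each factor had 1 such probeset. Those naming a factor beside another gene (1 each for Nkx2-2, Neurod1 and Pax6) stayed out, except as stated for Neurod1. Of the symbols in the lists, 15 were not analysed here.

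Tg minus WT was fitted across all genes by limma 3.58.1 (lmFit, eBayes; R 4.3.3), and p-values were adjusted after Benjamini and Hochberg over all 22180. Moderation added 3.76 to 2 residual degrees of freedom. The number of arrays limits the precision. Replicates are called biological, but separate animals are not stated, so p-values measure the spread between these samples, which may be technical. The steps were tested on simulated data. The factors and lists were chosen with earlier results of these data known, and lists are described by counts and medians. Named are all factors, Ffar3, Ins2, Gcg, Sst, Ppy, and in each list the called genes and the 2 with the smallest p; exceptions are marked. Alternatives were other probeset summaries, a level filter, other scalings and variance models, the replicate block and each array left out. Reading Neurod1 from its shared probeset, and the alternatives for Cacna1c, Cftr, Prom1 and Ffar3, were added after seeing the data.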

Additional observations from a re-analysis of the deposited data

How the results depend on the processing

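With all 4 arrays kept, limma called 0 of the 10 factors under every alternative (1 to 3 at an unadjusted p under 0.05). The 3 came with a variance trend, without and with a robust prior, where 2686 and 2737 of 22180 genes met that threshold. The ordinary linear model called 0 of all genes, so its 0 is not particular to the factors. Over all 15 settings, the factors' differences kept direction and side of the threshold in 142 of 150 cases and turned sign in 8. Many of these directions were fixed in advance. The other probeset summaries, the level filter, the variance models and the replicate block leave every factor's difference as in the main fit. The shared Neurod1 probeset alters Neurod1 alone. Neurod1 was at -0.0018 with arrays centred on the pan-endocrine list and at -0.15 from the probeset shared with Cerkl, a choice made after seeing the data. With each array left out, Neurod1 ranged from -0.19 to 0.22, Mnx1 from -0.014 to 0.30, Pax6 from -0.25 to 0.070, Nkx6-1 from -0.28 to 0.043 and Pdx1 from -0.25 to 0.040. The median of the factors ranged from -0.27 to -0.0051, and over the other alternatives from -0.15 to -0.11. Against 199 genes called, a robust prior with a variance trend gave 347, no moderation 0 (1928 at an unadjusted p under 0.05), the replicate block 24, and each array left out 38 to 135, with the lone array of a group assumed to vary like the others. The cause was not tested. Gaps between same-numbered arrays correlated at -0.063 over all genes, so the numbers are not shown to pair the samples. The replicate block called none of the factors, and the main fit had no such call that it could lose. The 95% intervals of the factors reached 0.26 to 0.47 log2 units to each side, which limits the size of change that 4 arrays can show.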

Other observations

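The families to which the factors belong were read as well. Of 41 relatives measured, among them other Pax, Nkx, Rfx, Maf, Neurod and Neurog genes, 0 passed over all genes. An unadjusted p under 0.05 was found for 7, against 11.8% of all genes. In Tg 22 were lower, against 54.3% of all genes, and the median difference was -0.0049. Their probesets were mostly dim, with a median rank of 39.6%, against 87.5% for the 10 factors. Cdx4, a homeobox gene related to Pdx1, read 5.85 and 5.83 on the Tg arrays, against 6.53 and 6.44 on the WT arrays (difference -0.65, adjusted p = 0.069). Neurod2 read 5.85 on both Tg arrays, against 5.37 and 5.52 on the WT arrays (difference 0.41, adjusted p = 0.230), and was named after its value was seen. Foxa1, the closest relative of Foxa2, differed by -0.0049 (adjusted p = 0.996) at a dim level of 5.35 and 5.22 in Tg islets, against 5.21 and 5.37 in WT islets, likewise named after its value was seen.

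Among the pan-endocrine genes, 0 of 15 passed (1 at an unadjusted p under 0.05, against 11.8% of all genes). A robust prior with a variance trend called 1. Chgb, a granule protein, read 13.04 and 12.95 in Tg islets, against 12.54 and 12.30 in WT islets (difference 0.58, adjusted p = 0.148), and Scg5, a chaperone of a prohormone convertase, differed by -0.27. In the acinar list 0 of 13 passed, and 0 had an unadjusted p under 0.05, with Bhlha15 at 0.24 and Ptf1a at -0.23. Of the Schwann markers, Sox10 was at -0.22 and Gfap at 0.05, with 0 of 3 past the test and 0 at an unadjusted p under 0.05.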
